A study of Mus musculus with 6 samples.

Results

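Osteoclasts are the giant cells of the monocyte lineage that dissolve bone. The 10 genes described here belong to the programme that the cytokine RANKL starts in their precursors, and they were taken by symbol from a table of 24054 genes counted in whole mouse thymus. Members were Nfatc1, the transcription factor at the head of the programme, Dcstamp, Ocstamp and Atp6v0d2, which cell fusion needs, the surface receptors Oscar and Itgb3, and Ctsk, Acp5, Ostm1 and Car2, which serve bone resorption. RANKL mice, sampled in 3 libraries, carried K5-rtTA and TetO-RANKL, which place RANKL under a doxycycline-controlled switch active in cells that use the keratin 5 promoter, among them basal and medullary epithelium. Control mice, also sampled in 3 libraries, carried 1 of the transgenes, which one not being stated, and all mice of both groups were given doxycycline in food and water. The schedule is given as 1 week from 8 weeks of age in one label and as 2 weeks from 9 weeks of age in another. The labels used here do not state strain, sex or whether each library came from a separate animal, so the p-values cover only the variation among these libraries.

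RANKL binds its receptor RANK on monocyte-lineage precursors that also depend on the growth factor M-CSF, and costimulatory receptors paired with the adaptors DAP12 and FcR gamma add a calcium signal. NF-kB and AP-1 factors then raise NFATc1, which in bone amplifies its own gene and turns on fusion, adhesion and resorption genes. In the thymus, RANKL is better known as the signal by which lymphoid cells make medullary epithelium mature, and many of these genes are also used by macrophages, dendritic cells, thymocytes, platelets or fibroblasts.

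The 10 genes did not move as one block. Of the 9 that could be tested, 5 were higher and 3 lower in RANKL thymus, and Acp5 was not called. The comparison as a whole was broad: of 16096 genes tested, 33.8% were called higher and 29.6% lower by edgeR's quasi-likelihood test at an adjusted p under 0.05, so those counts of members do not set them apart. Size separated them more: Dcstamp, Ocstamp, Atp6v0d2 and Ctsk were called with at least 4-fold increases, a class that held 17.2% of all genes tested. The median log2 fold change of the 9 genes was 0.62, beside -0.02 over all genes tested.

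Libraries held 18254870 to 25357060 counted reads. A floor of 3 reads amounted to 0.122 to 0.161 CPM (counts scaled to library size with TMM factors). It is about the one-sided 95% upper limit of the expected reads where 0 are counted. The identity of the tissue and the induction were visible in the counts. Tnfsf11, the gene of RANKL, had 3334, 4812 and 2390 CPM in the RANKL libraries, against 6.01, 6.34 and 8.89 CPM in control libraries, and these counts do not separate transgene from endogenous transcripts. Summed CPM of 8 genes of double-positive thymocytes, the cells that fill the cortex, were 186, 402 and 830 in the RANKL libraries and 8679 to 9895 in control libraries. With a change of that size in a mixed tissue, fewer cells of a type and less RNA per cell cannot be told apart.

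**Figure D1:**
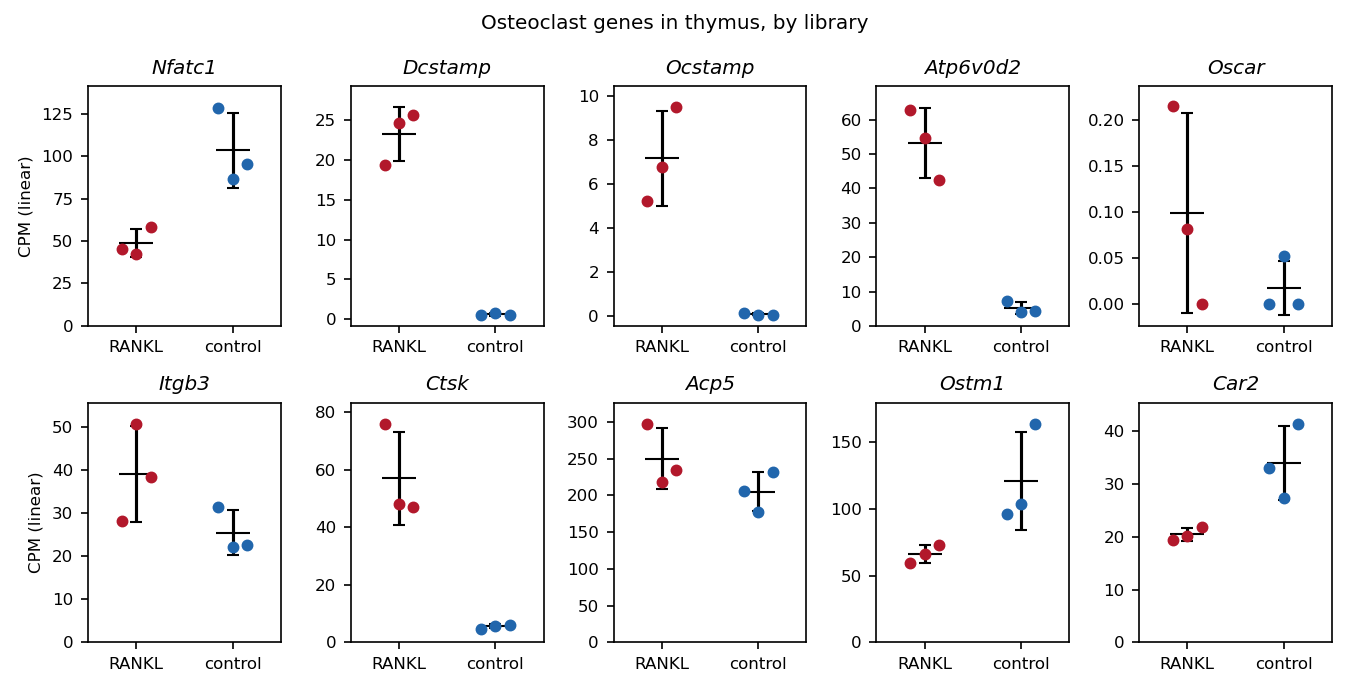
Level of each of the 10 genes in CPM (vertical axes, linear, each with its own range) in the 3 RANKL and the 3 control libraries. Dots are libraries in the order of their replicate number, horizontal marks are means and bars are SD; the 2 groups are apart for 7 genes and overlap for Oscar, Itgb3 and Acp5.

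Groups did not overlap in CPM for 7 of the 10 genes, among which Dcstamp, Ocstamp, Atp6v0d2 and Ctsk were higher and Nfatc1, Ostm1 and Car2 lower in RANKL libraries. Of all genes tested, 36.1% were higher and 34.1% lower without overlap.

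Dcstamp and Ocstamp had the largest fold changes of the 9 genes, and Atp6v0d2, the other fusion gene, changed about as much as Ctsk. Dcstamp (Entrez gene 75766, chromosome 15, 39745930 to 39760938 in GRCm38) encodes DC-STAMP, a membrane protein first found in dendritic cells and needed for osteoclast precursors to merge. It had 361, 608 and 545 reads in RANKL replicates 1, 2 and 3, or 19.4, 24.7 and 25.7 CPM, against 10, 15 and 11 reads in control replicates 1, 2 and 3, or 0.527, 0.773 and 0.526 CPM. All RANKL libraries were far above all control libraries, and control thymus held few reads of the gene, though more than the floor of 3 in each library. The increase was 37.9-fold (log2 fold change 5.25 ± 0.29, SE; adjusted p = 3.9e-06 by edgeR), which placed it at rank 281 of 16096 genes ordered from the largest increase.

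Ocstamp (Entrez gene 74614, chromosome 2, 165395450 to 165400394), whose product OC-STAMP works beside DC-STAMP in fusion, had the largest change of the 9 genes. It had 97, 167 and 202 reads in the RANKL libraries, against 3, 1 and 1 reads in control libraries, so the control level was at or under the floor of 3 reads in each library. In CPM this was 5.22, 6.79 and 9.52 in RANKL libraries and 0.158, 0.0515 and 0.0478 in control libraries. The log2 fold change was 6.31 ± 0.53 (SE; adjusted p = 1.43e-05 by edgeR), rank 140 of 16096. Because it rests on 5 control reads in all, its size is loosely set: the ratio of pooled reads was 85.8 with a 95% counting interval of 36.5 to 266, and without control replicate 1 the log2 fold change was 6.99.

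Atp6v0d2 (Entrez gene 242341, chromosome 4, 19876838 to 19922566) encodes the d2 subunit of the vacuolar proton pump, an alternative to the widespread d1 subunit that is needed for osteoclast fusion. It had 62.7, 54.5 and 42.6 CPM in the RANKL libraries, against 7.28, 3.92 and 4.40 CPM in control libraries. Every RANKL library lay above every control library, and the log2 fold change was 3.36 ± 0.28 (SE; adjusted p = 1.3e-05 by edgeR), a 10.2-fold increase. Atp6v0d1, the gene of the d1 subunit, averaged 152 ± 12.4 CPM in RANKL libraries and 125.5 ± 17.5 CPM in control libraries (SD, n = 3 each) and was not called. Of the reads of both d genes together, Atp6v0d2 took 30.3%, 24.7% and 22.7% in the RANKL libraries (95% Wilson intervals from 21.4% to 31.8%), against 5.51%, 3.49% and 2.98% in control libraries (intervals from 2.43% to 6.47%). The mean share was higher by 21.9 percentage points in RANKL thymus, with an exact two-sided permutation p of 0.1, the smallest that 3 libraries against 3 allow. Corrected for exon length, the share was 15.9% to 21.8% in RANKL libraries and 1.93% to 3.60% in control libraries. Whole-tissue counts do not show which cells hold the reads of each d gene. The part of the changed cell mixture in this share was not tested.

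Ctsk (Entrez gene 13038, chromosome 3, 95499210 to 95509387) encodes cathepsin K, the protease with which osteoclasts cut bone collagen. It had 75.7, 48.1 and 47.0 CPM in the RANKL libraries, against 4.75, 5.82 and 6.16 CPM in control libraries. The groups were well apart, with a log2 fold change of 3.35 ± 0.25 (SE; adjusted p = 8.76e-06 by edgeR), or 10.2-fold. Fibroblasts can make cathepsin K as well, and 6 of 6 fibroblast markers were also higher, their summed CPM being 3924 to 7689 in RANKL libraries and 393 to 497 in control libraries. Among RANKL libraries, Ctsk was highest in replicate 1 and the fibroblast sum in replicate 2, and the part of fibroblasts in the Ctsk result was not tested.

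Promoter windows were in the RefSeq-derived table for 4 of the 10 genes: Ctsk, Acp5, Ostm1 and Oscar. The windows of Ctsk, which rose, and Ostm1, which fell, are shown because these resorption genes moved in opposite directions. Each window runs 5′ to 3′ on the strand of the gene in GRCm38.p6, from 250 bases before to 50 bases after the annotated start. Capitals mark matches, on either strand, to the letters GGAAA (the core that NFAT factors recognise), TGANTCA (AP-1) or GAGGAA (the core that PU.1 recognises).
Ctsk, chr3:95498960-95499259, plus strand: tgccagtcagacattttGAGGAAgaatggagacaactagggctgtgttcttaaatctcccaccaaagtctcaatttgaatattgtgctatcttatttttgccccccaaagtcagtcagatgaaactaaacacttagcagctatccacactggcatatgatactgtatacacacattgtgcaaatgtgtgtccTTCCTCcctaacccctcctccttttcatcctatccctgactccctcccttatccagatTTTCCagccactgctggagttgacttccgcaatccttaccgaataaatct
Ostm1, chr10:42678666-42678965, plus strand: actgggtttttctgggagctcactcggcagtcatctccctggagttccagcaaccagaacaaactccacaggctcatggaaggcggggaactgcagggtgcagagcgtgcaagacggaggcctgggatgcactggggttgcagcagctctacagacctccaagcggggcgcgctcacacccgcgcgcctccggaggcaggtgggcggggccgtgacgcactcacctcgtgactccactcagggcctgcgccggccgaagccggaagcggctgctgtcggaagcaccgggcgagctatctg
The Ctsk window held 2 matches to GAGGAA and 1 to GGAAA, the match to GGAAA starting at the first transcribed base. No match to any of the 3 patterns is in these letters of Ostm1. The Oscar window held 4 matches to GGAAA and 2 to GAGGAA, a pair of which overlap, and the 3 Acp5 windows held 2, 1 and 1 matches to GGAAA and none to GAGGAA. Such matches are common: of 32851 windows of this length, 61.3% held GGAAA, 28.3% GAGGAA and 7.81% TGANTCA, so they describe the sequences only. CACGTG, a site of MITF-type factors, and TATAAA were searched as well, with 7.15% and 13.6% of windows holding them and no match in any window of the 4 genes.

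The other resorption genes did not follow Ctsk. Acp5 (Entrez gene 11433, chromosome 9, 22126727 to 22135746) encodes tartrate-resistant acid phosphatase, the enzyme stained to recognise osteoclasts and also made by some macrophages. It had 297, 218 and 235 CPM in the RANKL libraries, against 207, 178 and 232 CPM in control libraries. These ranges overlapped, and the log2 fold change of 0.28 ± 0.18 (SE) had an edgeR adjusted p of 0.192. Per exon length it had the highest level of the 10 genes in both groups.

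Ostm1 (Entrez gene 14628, chromosome 10, 42678916 to 42702462) encodes the partner protein of the lysosomal chloride transporter ClC-7, and its loss gives mice dense bone. It had 59.6, 66.0 and 73.1 CPM in the RANKL libraries, against 96.2, 104 and 163 CPM in control libraries. All RANKL values were lower than all control values, with a log2 fold change of -0.87 ± 0.22 (SE; adjusted p = 0.00589 by edgeR). Clcn7, the gene of ClC-7 itself, moved the other way, averaging 74.0 ± 5.81 CPM in RANKL libraries and 50.5 ± 7.13 CPM in control libraries (SD, n = 3 each; log2 fold change 0.55 ± 0.16, adjusted p = 0.0143 by edgeR).

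Car2 (Entrez gene 12349, chromosome 3, 14886269 to 14900770) encodes carbonic anhydrase 2, which supplies protons for acid secretion in osteoclasts and is abundant in red cells. It had 19.4, 20.2 and 21.8 CPM in the RANKL libraries, against 33.0, 27.3 and 41.2 CPM in control libraries. The groups were apart and the change was small, a log2 fold change of -0.73 ± 0.19 (SE; adjusted p = 0.00873 by edgeR), or 1.65-fold lower. Among erythroid markers Alas2 and Slc4a1 were tested and not called, with log2 fold changes of -1.20 and 1.15, and Hba-a1, Hbb-bs and Hbb-bt are listed at 0 in every library. Alas2 had reads in every library. Why the Hba and Hbb genes are at 0 was not tested, so their zeros do not show that red cells were absent.

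Nfatc1 (Entrez gene 18018, chromosome 18, 80606205 to 80713071), the factor through which RANKL acts in bone, was lower. It had 45.5, 42.4 and 58.2 CPM in the RANKL libraries, against 128.5, 86.6 and 95.3 CPM in control libraries. No RANKL library reached any control library, and the transcript was 2.12-fold lower, a log2 fold change of -1.09 ± 0.20 (SE; adjusted p = 0.00109 by edgeR). T lineage cells also use NFATc1, and all 8 double-positive thymocyte markers were lower, with a median log2 fold change of -4.76. Among RANKL libraries, replicate 3 had the most thymocyte marker CPM and the highest Nfatc1, Ostm1 and Car2, but also the highest Dcstamp and Ocstamp, which rose. Nfatc1 was lowest in RANKL replicate 2, while the thymocyte sum, Ostm1 and Car2 were lowest in replicate 1. In control libraries the thymocyte sum and Nfatc1 were highest in replicate 1, and Ostm1 and Car2 in replicate 3. The part of thymocytes in the decreases of Nfatc1, Ostm1 and Car2 was not tested.

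Of the receptors, Itgb3 (Entrez gene 16416, chromosome 11, 104608000 to 104670476) encodes integrin beta 3, which with integrin alpha V anchors osteoclasts to bone and with the Itga2b product forms the fibrinogen receptor of platelets. It had 28.1, 50.5 and 38.4 CPM in the RANKL libraries, against 31.4, 22.1 and 22.7 CPM in control libraries. Control replicate 1 lay above RANKL replicate 1, so the groups overlapped, and the log2 fold change of 0.62 ± 0.24 (SE) passed narrowly (adjusted p = 0.0472 by edgeR). The call was lost without control replicate 2 (0.166), control replicate 3 (0.14), RANKL replicate 2 (0.161, log2 fold change 0.41) or RANKL replicate 3 (0.0618), and also with no filter (0.063), with limma-voom (0.0512) and with a covariate that grouped libraries by the range of their title numbers (0.215). Under that covariate control replicate 2 was alone in its range, so it did not inform the group difference there. Itgav, the alpha V partner, rose more, to 209 ± 36.4 CPM in RANKL libraries against 52.0 ± 14.8 CPM in control libraries (SD, n = 3 each; log2 fold change 2.00 ± 0.24, adjusted p = 8.1e-05 by edgeR).

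Platelet and megakaryocyte markers moved beside Itgb3. Of 6 genes, 4 were higher, Gp1ba was not called and Gp6 was too low to test. Their summed CPM were 171, 748 and 149 in RANKL replicates 1, 2 and 3 and 7.47 to 8.75 in control libraries, and the library with the highest sum, RANKL replicate 2, also had the highest Itgb3. Most of that sum was Ppbp, a platelet chemokine, at 142.5, 673 and 123 CPM in the RANKL libraries and 0.334 to 0.825 CPM in control libraries. Pf4 was also highest in RANKL replicate 2. Itga2b, at 3.50, 6.67 and 6.79 CPM in RANKL replicates 1, 2 and 3, was highest in replicate 3. Gp9 and Gp1ba were highest in RANKL replicate 1 and lowest in replicate 2. The part of these cells in the Itgb3 result was not tested.

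Oscar (Entrez gene 232790, chromosome 7, 3609813 to 3616157), the osteoclast-associated receptor that binds collagen and signals through FcR gamma, was close to undetected. It had 4, 2 and 0 reads in the RANKL libraries, against 0, 1 and 0 reads in control libraries, and it did not pass the filter on low counts. The ratio of pooled reads was 5.52 with a 95% counting interval of 0.67 to 254, so neither an increase nor a decrease was detectable at this depth. With no filter the edgeR adjusted p was 0.268.

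**Figure D2:**
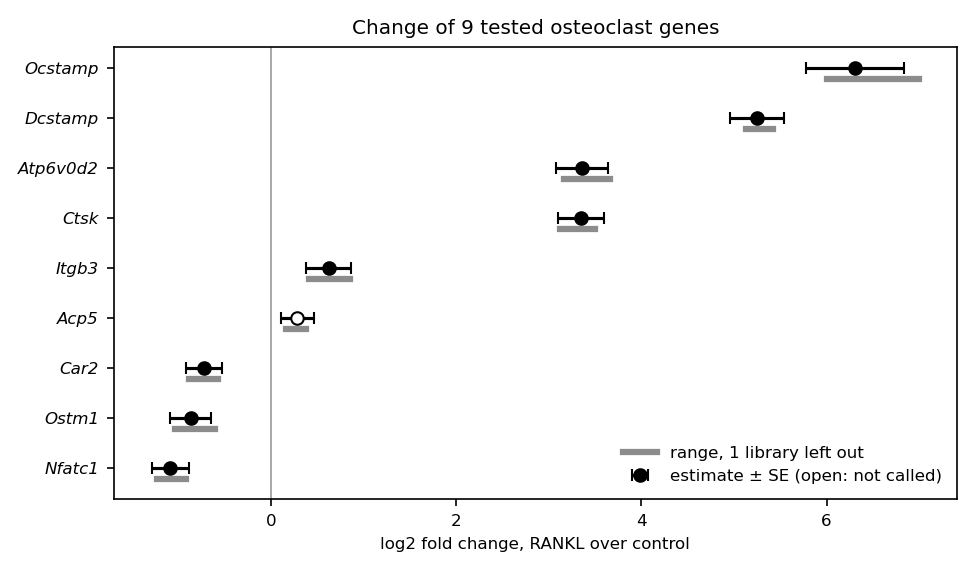
Log2 fold change of RANKL over control (horizontal axis) for the 9 genes that passed the filter on low counts, with SE; filled symbols were called and the open symbol, Acp5, was not. Grey bars give the range over fits with 1 library left out, which for Ocstamp runs from 6.01 to 6.99 and for Itgb3 from 0.41 to 0.85.

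Levels can be ranked between genes once they are divided by the exon length. In RANKL thymus Acp5 was highest, at 146 ± 24.2 CPM per kilobase of exon (SD, n = 3), followed by Ctsk at 37.7 ± 10.8, Atp6v0d2 at 20.98 ± 3.99 and Ostm1 at 20.5 ± 2.10 CPM per kilobase. Car2 at 11.4 ± 0.70, Dcstamp at 11.3 ± 1.64, Itgb3 at 6.74 ± 1.94 and Nfatc1 at 6.55 ± 1.12 came next, then Ocstamp at 1.96 ± 0.59 and Oscar at 0.0535 ± 0.0589 CPM per kilobase. The libraries of neighbours overlapped for Atp6v0d2 with Ostm1, Car2 with Dcstamp and Itgb3 with Nfatc1, so those pairs are not ordered.

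In control thymus the order was different below Acp5, which had 120.1 ± 15.7 CPM per kilobase (SD, n = 3). Ostm1 at 37.5 ± 11.4, Car2 at 18.9 ± 3.92 and Nfatc1 at 13.9 ± 2.98 CPM per kilobase came next, followed by Itgb3 at 4.39 ± 0.90, Ctsk at 3.69 ± 0.49 and Atp6v0d2 at 2.05 ± 0.72 CPM per kilobase. Dcstamp at 0.297 ± 0.0694 and Ocstamp at 0.0235 ± 0.0171 were near the bottom, above or level with Oscar at 0.0093 ± 0.0161 CPM per kilobase. Overlapping neighbours were Car2 with Nfatc1, Itgb3 with Ctsk and Ocstamp with Oscar.

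**Figure D3:**
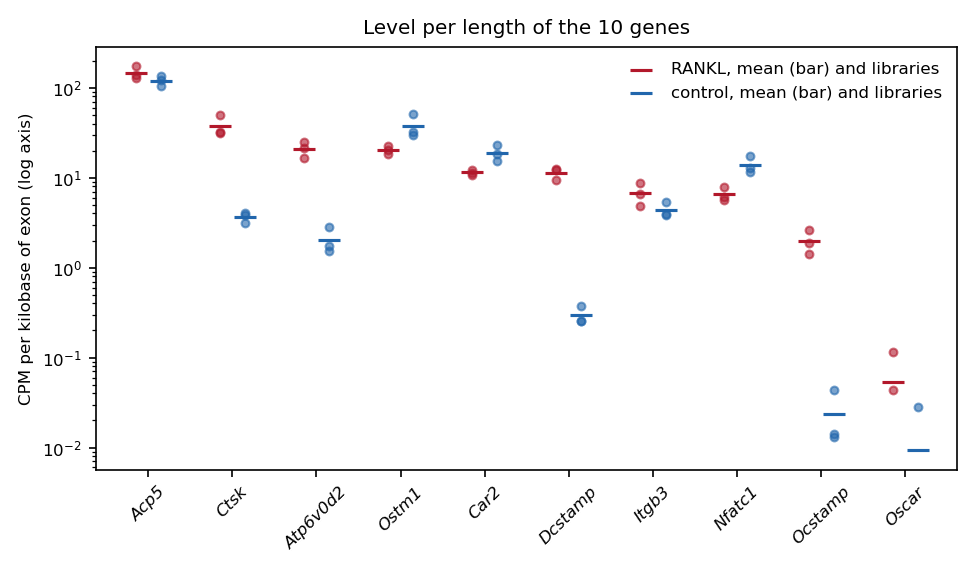
CPM per kilobase of exon (vertical axis, logarithmic) for the 10 genes, ordered by their mean in RANKL thymus; bars are group means and dots are libraries, with libraries at 0 reads, which occur for Oscar only, left out of the dots. Acp5 is highest in both groups, at 146 in RANKL and 120.1 in control thymus, while Ctsk, Atp6v0d2, Dcstamp and Ocstamp sit higher in RANKL and Ostm1, Car2 and Nfatc1 lower.

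Within the RANKL group the genes fell into different orders. Dcstamp, Ocstamp, Ostm1 and Car2 were lowest in replicate 1 and highest in replicate 3. Ctsk, Acp5 and Atp6v0d2 were highest in replicate 1. Car2 varied least, with a coefficient of variation of 6.09% between RANKL libraries, and Ocstamp most among the 9 tested genes, at 30.3%.

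Macrophages, the closest relatives of osteoclasts, were read from 12 markers. Of these, 10 were higher and 2, Marco and Vsig4, were not called, with a median log2 fold change of 1.69, and none was at 0 in all libraries of either group. Their summed CPM were 2598, 2781 and 2113 in the RANKL libraries and 815, 590 and 717 in control libraries. Dendritic cell markers, of which 5 of 8 were higher and 2 lower, summed to 268, 256 and 357 CPM in RANKL libraries and 78.0 to 88.8 CPM in control libraries.

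A further scale, added after the CPM values had been seen, set each gene against the macrophage sum of the same library. That sum was itself higher in RANKL thymus, with a ratio of means of 3.53. Dividing by it lowers every ratio by about that factor. The split into the same 4 genes that rose strongly and the rest therefore follows from the CPM changes and is not a separate result. Dcstamp had 7.48, 8.89 and 12.2 CPM per 1000 CPM of macrophage markers in the RANKL libraries, against 0.647, 1.31 and 0.733 in control libraries, a ratio of means of 10.6. Ocstamp had 2.01, 2.44 and 4.50 on this scale in the RANKL libraries, against 0.194, 0.0873 and 0.0666 in control libraries, a ratio of 25.7. Dcstamp and Ocstamp were thus higher per macrophage marker read in every RANKL library.

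The ratio was 2.94 for Atp6v0d2 and 2.83 for Ctsk, again with no overlap between groups. Acp5 averaged 101 ± 19.8 on this scale in RANKL libraries and 293 ± 35.6 in control libraries, and Itgb3 15.7 ± 4.24 in RANKL libraries and 35.9 ± 3.74 in control libraries (SD, n = 3 each). Both were thus lower per macrophage marker read, whereas in CPM Itgb3 was narrowly called higher and Acp5 was not called. Nfatc1 averaged 20.1 ± 6.53 in RANKL libraries and 146 ± 12.4 in control libraries (SD, n = 3 each), and Ostm1 and Car2 had ratios of 0.156 and 0.174. Of all genes tested, 11.1% were higher and 71.3% lower with no overlap on this scale, beside 4 and 5 of the 9 genes. The ratios changed little with Csf1r taken out of the marker list, at 10.7 for Dcstamp and 25.6 for Ocstamp, and how many of these transcripts come from macrophages was not tested. The list also holds Cd14, at 266, 850 and 407 CPM in the RANKL libraries and 6.70, 6.39 and 5.54 CPM in control libraries. Its increase lowers every ratio on this scale, and ratios without it were not computed.

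**Figure D4:**
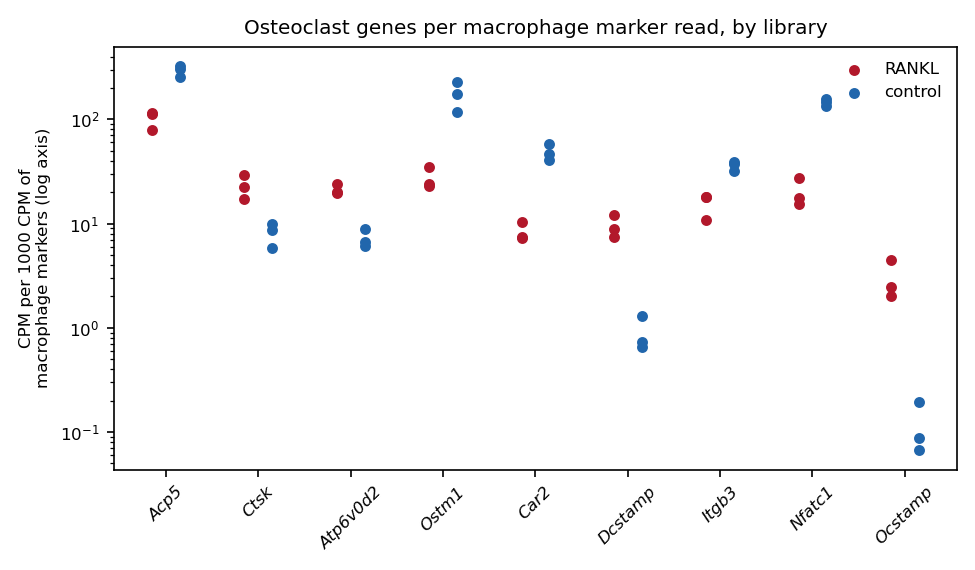
CPM of each of 9 genes per 1000 summed CPM of 12 macrophage markers in the same library (vertical axis, logarithmic); dots are libraries. Dcstamp, Ocstamp, Atp6v0d2 and Ctsk are higher in all RANKL libraries, and Acp5, Ostm1, Car2, Itgb3 and Nfatc1 are lower in all of them; Oscar, with 0 reads in 3 libraries, is not drawn.

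Many genes shared the pattern of Dcstamp and Ocstamp across the 6 libraries. Pearson correlation of log2 CPM was highest with Stap2, Cc2d2a and Atp6v1c2 for Dcstamp (0.999 each) and with Scgb1c1, Dennd3 and Arl14 for Ocstamp (0.9995, 0.999 and 0.999). For Car2 they were B3galt4, Ccdc85b and Ptp4a2 (0.998, 0.996 and 0.995). A correlation of at least 0.95 was reached by 2570 of 16095 genes for Dcstamp, 2604 for Ocstamp and 458 for Car2. These correlations are descriptions over 6 libraries that fall into both groups.

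Other genes of osteoclast formation and function, 69 in 7 lists, all passed the filter. Of these, 53 were higher, 6 lower and 10 not called, with a median log2 fold change of 1.48, where 33.8% and 29.6% of all genes were called higher and lower. The lists were chosen with earlier results of these data known. They include Tnfsf11, the induced gene itself, and Csf1r, which is also among the macrophage markers. The counts therefore describe the lists and are no test of them. Markers of other cell types moved beside these lists: 7 of 7 tested neutrophil markers were higher, with summed CPM of 1851, 4130 and 2181 in the RANKL libraries and 14.1 to 42.65 in control libraries. Medullary epithelial markers were higher in 7 of 7 genes, with sums of 4202 to 5566 CPM in RANKL libraries and 518 to 647 CPM in control libraries, and microfold-like epithelial markers in 5 of 6, with 1406 to 1732 CPM in RANKL libraries and 272 to 330 CPM in control libraries. None of these markers was at 0 in all libraries of either group, and the part of these cells in the counts of the lists was not tested. Upstream of the members, 5 of 6 ligands and receptors were higher. These 5 include Tnfsf11, whose increase was set by the design, since the RANKL mice carried TetO-RANKL. Tnfrsf11a, the receptor RANK, had 98.7, 48.2 and 71.2 CPM in the RANKL libraries, against 15.9, 8.76 and 7.84 CPM in control libraries (log2 fold change 2.75 ± 0.34; adjusted p = 0.000102 by edgeR). Tnfrsf11b, the decoy receptor that neutralises RANKL, had 492, 459 and 361 CPM in the RANKL libraries, against 7.59, 4.95 and 4.35 CPM in control libraries. Transcripts of receptor and decoy were thus higher in every RANKL library, beside those of the induced ligand. Csf1, the gene of M-CSF, averaged 287 ± 88.2 CPM in RANKL libraries and 25.4 ± 5.88 CPM in control libraries, and its receptor gene Csf1r 326 ± 19.9 CPM in RANKL libraries and 93.5 ± 27.1 CPM in control libraries (SD, n = 3 each). Il34, the second ligand of that receptor, was not called, with a log2 fold change of 0.43.

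Costimulation followed, with 9 of 12 genes higher, 2 lower and 1 not called. Neutrophils and macrophages, whose marker sums are given above, use several of these genes as well, and the part of those cells in these counts was not tested. The largest increase was in the Fc receptor gene Fcgr3 (log2 fold change 3.71 ± 0.24), followed by the receptor gene Trem2 (3.24 ± 0.25), the adaptor gene Blnk (3.13 ± 0.22) and Fcer1g (2.68 ± 0.20), which encodes the FcR gamma chain through which Oscar signals. Traf6, the adaptor that links RANK to NF-kB, was lower, at 76.4 ± 12.6 CPM in RANKL libraries and 116 ± 32.9 CPM in control libraries (SD, n = 3 each; log2 fold change -0.61 ± 0.22, adjusted p = 0.0344 by edgeR). Its call was lost with upper-quartile factors (0.0726) and without control replicate 1 (0.107), RANKL replicate 2 (0.0905) or RANKL replicate 3 (0.0823). The kinase gene Map3k7 was lower, with a log2 fold change of -0.46 ± 0.14, and was not called without RANKL replicate 1 (0.0785) or replicate 3 (0.0654). Siglec15, an osteoclast receptor, had 9, 1 and 0 reads in the RANKL libraries, against 11, 15 and 13 reads in control libraries, and was not called (adjusted p = 0.0755 by edgeR). Without RANKL replicate 1 it was called lower, with a log2 fold change of -4.55 (0.00288), and without RANKL replicate 3 the value was -1.37. Siglec15 was also called lower with limma-voom on all libraries (log2 fold change -2.91, limma-voom adjusted p = 0.0184).

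Of 13 transcription factor genes that promote osteoclasts, 11 were higher and none lower. One of the 11, the NF-kB gene Nfkb1 (log2 fold change 0.45 ± 0.17; adjusted p = 0.0352 by edgeR), lost its call without control replicates 2 (0.137) or 3 (0.0928) or RANKL replicates 2 (0.0709) or 3 (0.054), when low counts were kept (0.0834) and under the title-number covariate (0.117). Fosl2 rose by a log2 fold change of 3.41 ± 0.32, Jdp2 by 2.53 ± 0.23, Jun by 2.29 ± 0.22 and Fos, which in bone acts just upstream of Nfatc1, by 2.17 ± 0.28. Spi1, the gene of PU.1, averaged 94.9 ± 11.6 CPM in RANKL libraries and 23.6 ± 5.04 CPM in control libraries, and Mitf 17.4 ± 1.25 CPM in RANKL libraries and 6.84 ± 1.26 CPM in control libraries (SD, n = 3 each). Nfatc2, a relative of Nfatc1, and the NF-kB subunit gene Rela were not called, with log2 fold changes of 0.11 and 0.14. Among factors that restrain osteoclasts, Id2 was higher (log2 fold change 0.60 ± 0.17) and Bcl6 fell to 46.6 ± 2.73 CPM in RANKL libraries against 132 ± 17.2 CPM in control libraries (SD, n = 3 each; log2 fold change -1.50 ± 0.16). The call of Id2 was lost without control replicate 2 (0.0541). Irf8 was higher, with a log2 fold change of 0.62 ± 0.22, and its call was lost without control replicates 2 (0.122) or 3 (0.0986) or RANKL replicates 1 (0.0755) or 3 (0.0615) and with the title-number covariate (0.0616).

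Among fusion and cell-surface partners, 7 of 10 genes were higher and 1 lower. Adam8, a metalloprotease gene, rose 23.0-fold, the tetraspanin gene Cd9 9.30-fold, Cd44 7.03-fold and Sirpa, the receptor of CD47, 3.82-fold. Cd47 and the kinase gene Ptk2b were not called, with log2 fold changes of -0.20 and -0.23, and Pstpip1 was lower, with -1.19 ± 0.28.

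Acid secretion changed by smaller steps, with 10 of 15 genes higher, 1 lower and 4 not called, and a median log2 fold change of 0.60. Atp6v0a1 and Atp6v1a, which encode the a1 and A subunits of the proton pump, rose by 1.91 ± 0.21 and 1.07 ± 0.17 on the log2 scale. Tcirg1, the a3 subunit that osteoclasts place in the ruffled border, rose by 1.51 ± 0.27 and the sorting nexin gene Snx10 by 1.39 ± 0.19. Beside these, the log2 fold change was 3.36 for Atp6v0d2 and 4.52 for Atp6v1c2, a further pump subunit gene that is not on this list; the differences between pump genes were not tested. Slc4a2, the chloride and bicarbonate exchanger, was lower, with a log2 fold change of -0.41 ± 0.16, and kept its call without control replicate 3 but lost it on leaving out any other library (0.0519 to 0.167), with upper-quartile factors (0.101), with a CPM filter (0.0574) and with the title-number covariate (0.123). Rab7, among the 10 called higher, lost its call without control replicates 2 (0.144) or 3 (0.0931) or RANKL replicate 2 (0.079), when low counts were kept (0.0678) and under the title-number covariate (0.102). Atp6v0d1, Plekhm1, Slc9b2 and Rab27a were the genes not called; without control replicate 3 Plekhm1 was called lower (0.0471), and without RANKL replicate 3 Slc9b2 was (0.0409).

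Matrix-degrading enzymes and late markers were higher in 8 of 9 genes. Acp2, one of the 8, lost its call without control replicates 2 (0.077) or 3 (0.0765) or RANKL replicates 1 (0.0719) or 2 (0.0563) and when low counts were kept (0.1). Ctss, cathepsin S of antigen-presenting cells, rose 6.71-fold, the metalloprotease genes Mmp14 and Mmp9 6.77-fold and 5.19-fold, and Cd109 6.62-fold. Calcr, the calcitonin receptor that marks mature osteoclasts, had 44, 20 and 42 reads in the RANKL libraries, against 4, 3 and 2 reads in control libraries, a log2 fold change of 3.44 ± 0.60 (adjusted p = 0.000829 by edgeR) at a level of 1.72 ± 0.81 CPM in RANKL libraries and 0.154 ± 0.0577 CPM in control libraries (SD, n = 3 each). Ctsl, a cathepsin of cortical epithelium, was lower, with a log2 fold change of -0.91 ± 0.27, and lost its call without control replicate 3 (0.0538) or RANKL replicate 1 (0.0695).

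**Figure D5:**
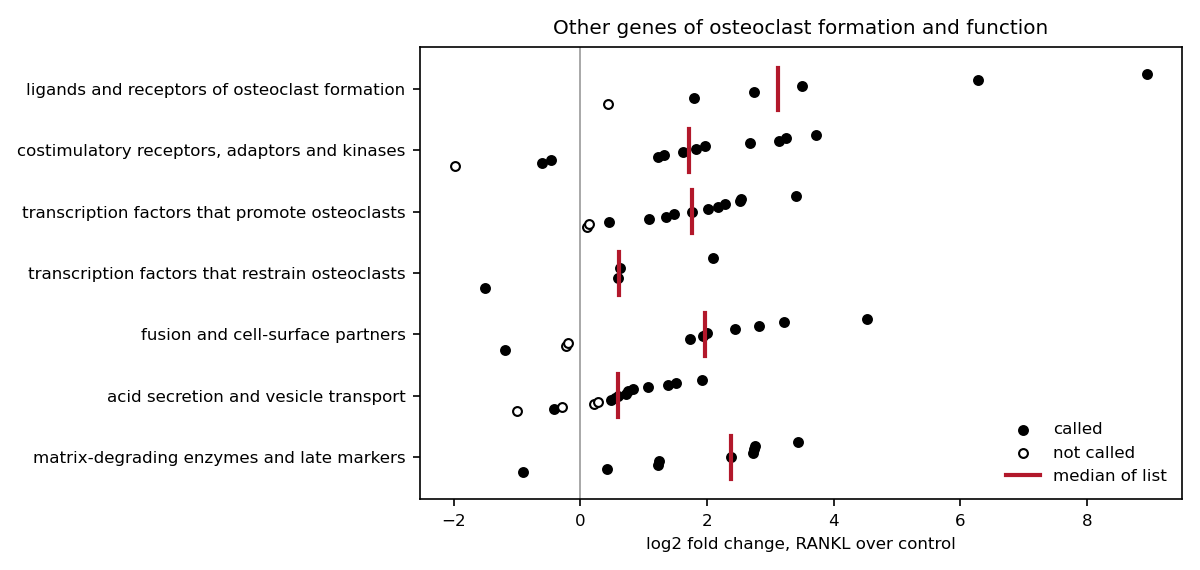
Log2 fold change of RANKL over control (horizontal axis) for 69 other genes of osteoclast formation and function in 7 lists. Each dot is a gene, filled where called and open where not, and the red line is the median of its list, from 0.60 for acid secretion to 3.12 for ligands and receptors. The last list includes Tnfsf11, the induced gene.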

How the data were processed

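RNA was measured in 6 thymus libraries, 3 RANKL and 3 control. Per the labels' protocols, stranded mRNA libraries were made from 250 ng of RNA. The authors deposited raw counts of reads per gene. Per the submitters' processing notes STAR and mm10 were used; versions, counting tool, strand setting and annotation were not given in the sources used here. Genes on opposite strands (Nfatc1, Acp5 and Ostm1 have such annotated neighbours in GENCODE M21) may share reads.

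Genes passing filterByExpr were scaled by TMM and tested two-sided with edgeR 4.0.16 (R 4.3.3; robust quasi-likelihood F test), without covariates, with Benjamini-Hochberg adjustment over 16096 genes and a threshold of 0.05. SE values derive from the F statistic. CPM used TMM-scaled totals. Replicate pairs differed by far more than sampling noise (chi-square per degree of freedom 31.7 to 67.9). Counting intervals and floors cover counting error only. Lengths are exon unions of protein-coding transcripts in the GENCODE basic set (GRCm38), and coordinates are from a RefSeq table of GRCm38.p6. On simulated counts with 200 changed genes, of 14921 tested, 47.8% of 2-fold, 88.1% of 4-fold and 98.5% of 8-fold changes were called. There were 8 false calls of 164. Whether these rates apply to the RANKL comparison, where 33.8% of genes were called higher and 29.6% lower, was not tested.

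Members and lists were chosen with earlier results of these data known. Named genes were the members, the 4 smallest p of each list, 15 genes fixed by name, and remaining genes where few moved one way, the last chosen after their values were seen. Adgre1 was matched by its older symbol, Emr1; Ly6g was not matched. The values of 1 gene within these rules are left out of the text. Alternatives were RLE (edgeR), upper-quartile and no composition factors, 2 other filters, no robust estimation, DESeq2 1.42.0, limma-voom (limma 3.58.1), a block for the title-number range and each library left out. Control replicate 2 was alone in its title-number block, so that fit is not independent of the fit without it. Figures used matplotlib 3.10.9.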

Additional observations from a re-analysis of the deposited data

How the results depend on the processing

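Across the alternatives, which were 9 other settings and the 6 fits with a library left out, Dcstamp, Ocstamp, Atp6v0d2 and Ctsk stayed higher, Nfatc1, Ostm1 and Car2 lower and Acp5 not called. Itgb3 lost its call with no filter (log2 fold change 0.54, adjusted p = 0.063), with limma-voom (0.61, 0.0512) and with the title-number block (0.47, 0.215). With a library left out, log2 fold changes were 0.41 to 0.85 for Itgb3, 6.01 to 6.99 for Ocstamp and 5.13 to 5.42 for Dcstamp. Upper-quartile factors shifted the median of all genes by 0.10 (log2). Members called higher numbered 4 or 5 and lower 3 under every alternative, and programme genes called higher 48 to 53 and lower 4 to 7. Of 69 programme genes, 14 changed call or direction under some alternative, among them Rela and Nfatc2, which were called in no fit; with a library left out Rela ran from -0.0027 to 0.25, turning without control replicate 2, and Nfatc2 from -0.14 to 0.49, turning without control replicates 2 (-0.02) or 3. The cause was not tested. No paired analysis was possible because replicates were numbered in accession order and the labels pair no libraries. Depth limits Oscar, at 7 reads in all, and the control level of Ocstamp, at 5.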

Other observations

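Markers of bone-forming cells were low in both groups and higher in RANKL thymus for 4 of 5 genes, where 33.8% of all genes tested were called higher. Ibsp, which encodes bone sialoprotein, had 27, 72 and 40 reads in the RANKL libraries, against 3, 0 and 2 reads in control libraries (log2 fold change 4.54 ± 0.69, edgeR adjusted p = 0.000366). Sp7, a transcription factor gene of osteoblasts, had 25, 19 and 30 reads in the RANKL libraries, against 5, 5 and 4 reads in control libraries. Bglap, the osteocalcin gene, and Dmp1 were called higher as well, with log2 fold changes of 2.38 and 1.78, and Phex was not called, at 0.676 ± 0.417 CPM in RANKL libraries and 0.666 ± 0.255 CPM in control libraries (SD, n = 3 each). The summed CPM of the 5 genes were 5.53 to 7.82 in RANKL libraries and 1.24 to 1.85 in control libraries.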
